A study of Callithrix jacchus with 4 samples.

Results

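The substantia nigra pars compacta of 1 common marmoset killed 14 days after a single dose of MPTP was compared with that of 1 vehicle-treated marmoset on 1 of the 4 arrays of the series. The array was chosen by its label (nigra, 14 days after MPTP), and all of its 18014 measured genes are described. With the ratio read as MPTP over vehicle, chaperone transcripts lay mostly below the vehicle animal: of 68 heat shock genes 46 lay below 0 and 4 (5.88%) were at least 2-fold lower, against 2.12% of all genes. GABAergic neuron markers, metallothioneins and chaperonin and prefoldin subunits had medians of −0.54, −0.43 and −0.36, and globin and other erythrocyte genes one of 0.39. Of all 74 lists, 30 had a median below 0 and 43 above. The heat shock and chaperonin medians lay below 0, and the erythrocyte median above 0, on all 4 arrays, which share the vehicle sample. Listed markers of dopamine neurons had a median of 0.09, with 1 of 23 at least 2-fold lower (CALB1). Only 12 genes had several array features that all passed 2-fold, 9 of them lower (among them INHBA, PSMC6 and TTC12) and 3 higher (SWAP70, SNX18 and APOC1).

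MPTP is a pro-toxin. Glial monoamine oxidase B turns it into MPP+, which enters dopamine neurons through the dopamine transporter and inhibits complex I of the respiratory chain. The pars compacta of the substantia nigra holds the dopamine neurons that project to the striatum, together with GABAergic neurons, glia and vessels, and in primates MPTP is known to kill many of these dopamine neurons and to cause parkinsonism. The study asked how nigral gene expression stands at successive times after the toxin, and 14 days is its latest time.

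All 5 animals were male, 3 years old and anaesthetised with pentobarbital. The vehicle animal received intravenous vehicle, and the other 4 received 2.5 mg/kg MPTP intravenously once and were killed after 2 or 6 h or after 1 or 14 days, 1 animal a time. A strip of the nigra of 1 side was cut out by laser microdissection from 2 stained slides, so the RNA is that of all cells in the strip. It was amplified in 2 rounds, labelled with Cy5 (MPTP) or Cy3 (vehicle), and hybridised to an oligonucleotide array made for human genes.

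Values below are log2 ratios of the MPTP animal over the vehicle animal for RNA, so 1 is 2-fold higher and −1 is 2-fold lower. The scale and the direction were inferred from the values and the dyes; were it vehicle over MPTP, all signs would be opposite. A gene's value is the median over its features, and ± gives the SD over features, not over animals. No group had a replicate, so the spread between animals is unknown and no p-value is given. The same vehicle sample is in every ratio, so a gene that was low in an MPTP animal and a gene that was high in the vehicle animal cannot be told apart, also where all 4 arrays show 1 direction. A ratio holds no level: it does not show whether a cell type was present, and fewer cells of a type cannot be told apart from less RNA per cell.

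Of 43931 features on the array, 29033 named 1 gene, and 10603 genes (58.9%) had 1 feature. The SD of the gene values was 0.47 at 14 days, beside 0.71 at 2 h, 0.57 at 6 h and 0.48 at 1 day, and its 5th and 95th percentiles at 14 days were −0.73 and 0.69. At 14 days 3243 features (7.38%) were listed as exactly 0, against 4.70% to 5.54% on the other arrays, and 507 genes had every feature at exactly 0, against 275 to 338. Nothing can be read from such a gene. Among the listed genes, the dopamine transporter SLC6A3, the immediate early gene FOS, the microglial complement gene C1QA and TGFB1 were in this state. FOS, a marker of recent neuronal activity, had read 1.5, 1.32 and 1.25 at 2 h, 6 h and 1 day.

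Of the 18014 genes, 390 (2.16%) were at least 2-fold higher than vehicle at 14 days and 382 (2.12%) at least 2-fold lower. Most rested on 1 feature: 333 of 10603 single-feature genes passed 2-fold above vehicle (3.14%) and 304 below it (2.87%), while of 7411 genes with several features 57 (0.769%) and 78 (1.05%) had such a median. A small list with no member past 2-fold, as in several groups below, is near these shares. Features of 1 gene differed widely from each other. Over the 5162 genes with exactly 2 features, the values of both features had a Pearson r of 0.08 and a Spearman rho of 0.10 across genes, which are not independent replicates. Of 600 such genes with at least 1 feature past 2-fold, 11 (1.83%) had both past 2-fold on the same side, and 318 (53%) had both features on 1 side of 0. Genes whose features agree are therefore given first, and a value from 1 feature is the reading of 1 probe.

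**Figure D1:**
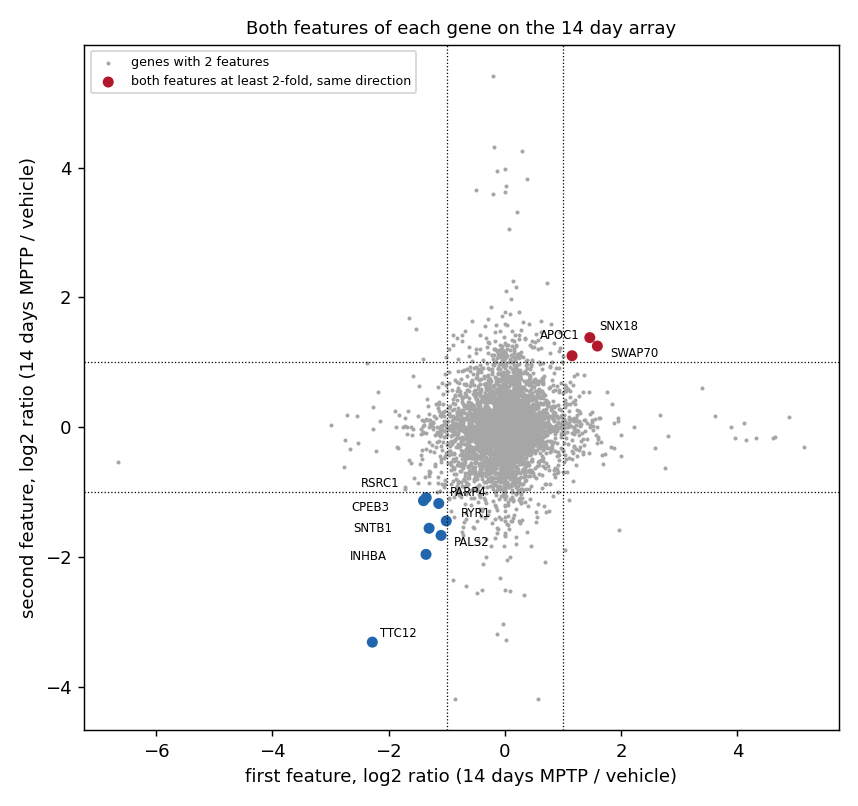
Log2 ratio (14 days MPTP over vehicle) of the first feature against that of the second, for each of the 5162 genes with 2 features; dotted lines mark 2-fold, red points are the 3 genes with both features at least 2-fold higher and blue points those with both at least 2-fold lower. Most extreme readings of 1 feature lie near 0 on the other, and 11 genes lie in the agreeing corners.

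Of the 7411 genes with several features, 3 had every feature past 2-fold above vehicle (0.0405%) and 9 had every feature past 2-fold below it (0.121%). SWAP70, a phosphoinositide-binding adaptor of actin and RAC signalling, stood at 1.42 ± 0.24, with features at 1.25 and 1.59. It had read −1.10 at 2 h, 0.38 at 6 h and −0.33 at 1 day, so its median was above vehicle by more than 2-fold at 14 days alone. At 2 h its features had lain at −0.09 and −2.11. SNX18, a sorting nexin of endosomes and membrane tubulation, also stood at 1.42 ± 0.06, with values of −0.09, 0.57 and 0.25 on the earlier arrays. APOC1, an apolipoprotein of lipid-carrying particles that macrophages and astrocytes make, stood at 1.13 ± 0.04. Its earlier values were 0.49, 0.64 and 1.17, so 1 day and 14 days read alike.

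Lowest of the 9 was TTC12, a protein needed to assemble the dynein arms of motile cilia, at −2.79 ± 0.73 (6.93-fold lower). It was also the lowest of the 9 at 2 h (−3.24), 6 h (−2.68) and 1 day (−2.47), so the MPTP animals differ from the shared vehicle sample by a similar amount at every time. INHBA, the subunit that forms activin A, a TGF-beta family ligand, stood at −1.66 ± 0.43 (3.15-fold lower), after −0.88, −1.30 and −1.57 on the earlier arrays. Its features took different courses: 1 read −2.10, −2.30, −2.07 and −1.96 from 2 h to 14 days, and the other 0.34, −0.31, −1.06 and −1.36. SNTB1, a syntrophin of the dystrophin complex, read −1.43 ± 0.18 after −0.78, −0.65 and −1.19. At 6 h 1 of its features was listed at exactly 0 and the other read −1.31. PALS2, a membrane-associated guanylate kinase scaffold, read −1.38 ± 0.40, after −2.05, −1.76 and −0.71.

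CPEB3, which binds messenger RNAs and represses their translation at synapses, stood at −1.26 ± 0.19 and had been lowest at 2 h (−2.44). RSRC1, a splicing-related protein, stood at −1.22 ± 0.19, between its values at 6 h (−0.97) and 2 h (−1.46). PARP4, the poly(ADP-ribose) polymerase of vault particles, had features at −1.17 and −1.14 and earlier values of −1.71, −1.0 and −0.63. PSMC6, an ATPase subunit of the 19S proteasome cap, had 4 features between −1.25 and −1.05, and had read −1.93, −1.43 and −0.74. For PALS2, CPEB3, RSRC1, PARP4 and PSMC6 the median was nearest to vehicle at 1 day and farther from it again at 14 days. At 6 h 1 feature of RSRC1 had been nearer still (−0.14). RYR1, an intracellular calcium release channel best known from skeletal muscle, read −1.22 ± 0.31 at 14 days, after −0.29, 0.04 and 1.85. The value of 1.85 at 1 day lay between features at 3.92 and −0.23.

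**Figure D2:**
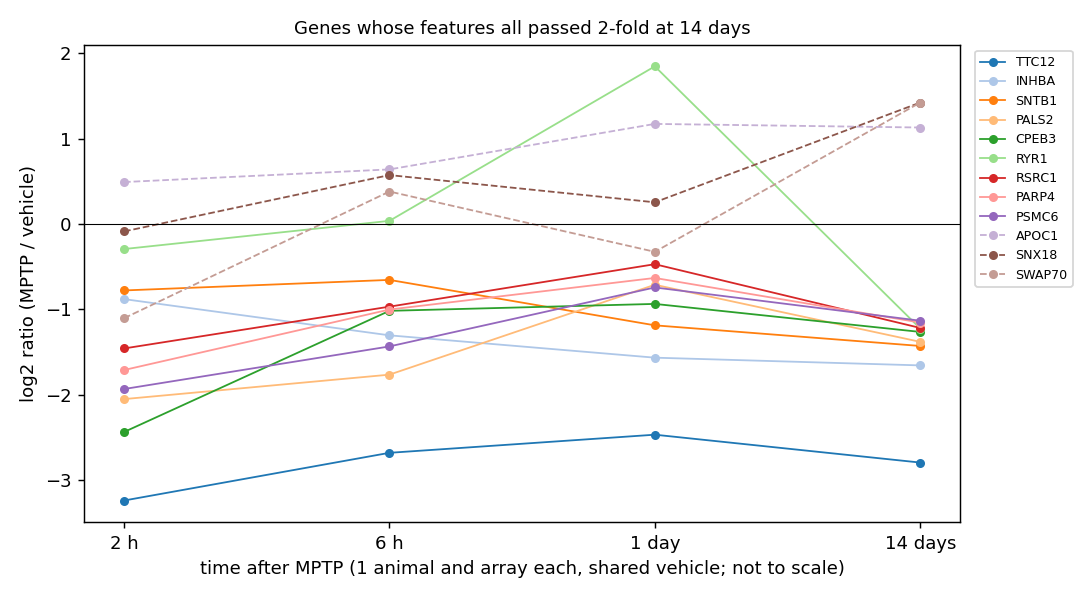
Log2 ratio (MPTP over vehicle) on the 4 arrays, in order of time and not to scale, for the 12 genes whose features all passed 2-fold at 14 days (solid lines lower, dashed lines higher); each point is 1 animal against the same vehicle sample. The medians of RYR1 and SWAP70 lie on opposite sides of vehicle at 14 days and at an earlier time, while TTC12 lies below −2 throughout.

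At 1.5-fold, 48 genes with several features had all of them higher (0.648%) and 103 had all of them lower (1.39%). SPP1, osteopontin, a secreted phosphoprotein of activated microglia and some neurons, was read by 10 features between −1.26 and −0.92, with a median of −1.20 (−1.57, −1.15 and −0.84 on the earlier arrays). All 10 features therefore lay below vehicle. RPAP3, a co-chaperone that helps HSP90 assemble RNA polymerases, also had 10 features, at −1.04 ± 0.06, and had read −2.27, −1.65 and −0.76. The 10 features may be repeat spots of 1 probe, so their narrow range shows the precision of the array and not that of the comparison.

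Chaperones bind unfolded proteins: HSP70 and HSP90 proteins fold clients with the help of J-domain and BAG co-chaperones, and the chaperonin CCT with prefoldin folds actin and tubulin. Of the 68 heat shock genes and co-chaperones measured, 46 (67.6%) lay below 0 at 14 days, against 45.1% of all genes, with a median of −0.19 beside 0.0095 for all genes. None was at least 2-fold higher. Over the 37 members with several features the median was −0.42, and in 7 of the 37 (18.9%) every feature was at least 1.5-fold lower, against 1.39% of all such genes. No member had every feature at least 1.5-fold higher.

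Among the HSP90 machinery, HSP90AA1, the inducible cytosolic HSP90, read −0.99 ± 0.30 with 4 features from −1.25 to −0.70. Its values at 2 h, 6 h and 1 day were −0.47, −0.99 and −0.18. HSP90AB1, the constitutive form, read −0.82 ± 0.44 over 3 features, 1 of them near 0. SUGT1, an HSP90 co-chaperone, read −0.90 ± 0.04, and CHORDC1, another, −0.70 ± 0.43. Every feature of HSP90AA1 was farther below vehicle at 14 days than at 1 day. FKBP4, an immunophilin partner of HSP90 in steroid receptor complexes, was the highest member of the list, at 0.89 ± 0.86.

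Of the HSP70 family, HSPA4 stood at −0.82 ± 0.11 (−0.90, −0.79 and −0.24 on the earlier arrays) and HSPA1A, the stress-induced HSP70, at −0.71 ± 0.15 (−0.94, −0.78 and −0.68). HSPA1A shares most of its sequence with other HSP70 genes, so its probes may read them too. HSPA8, the constitutive HSC70, had 5 features from −0.56 to 0.13 and a median of −0.19. HSPA14, a ribosome-associated HSP70, had the lowest median (−1.56), but its features lay at −2.45 and −0.66, and its 2.06 at 1 day lay between features at 4.68 and −0.56. The lens crystallin CRYAA (−1.53 ± 2.12) and HSPA12A (−1.24 ± 1.23) also had features far apart. DNAJC2, a ribosome-associated J-domain protein, had 1 feature, at −1.13.

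J-domain and BAG co-chaperones, which load clients on HSP70 or release them, also held low members. DNAJA1 read −0.96 ± 0.11, DNAJB4 −0.76 ± 0.07 and BAG3, which routes clients to autophagy, −0.98 ± 0.09. In mitochondria, the HSP60 gene HSPD1 read −0.78 ± 0.08 and its partner HSPE1 −0.42. BAG3 had been lower at 6 h (−1.57) and HSPD1 at 2 h (−1.08). The transcription factor HSF1, the master regulator of the heat shock response, stood on the other side, at 0.51, as it had on the earlier arrays (1.78, 0.67 and 0.52).

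Of 15 chaperonin and prefoldin subunits, 13 lay below 0, with a median of −0.36 and none past 2-fold. The lowest were CCT6A (−0.92 ± 0.16), CCT3 (−0.76) and CCT4 (−0.74), and the only members above 0 were PFDN1 (0.25) and CCT6B (0.28). Set against the 1 day animal, a difference in which the vehicle sample cancels, 48 of the 68 heat shock genes (70.6%) and 11 of the 15 chaperonin and prefoldin genes (73.3%) were lower at 14 days, against 49.7% of all genes. Set against the 6 h animal 35 and 6 were lower, and against the 2 h animal 28 and 5. Low values were not limited to 14 days. Below 0 lay 48 of the 68 heat shock genes at 2 h, 46 at 6 h and 42 at 1 day. Of all genes, 52.1%, 53.2% and 52.3% lay above 0 on these arrays. Centring put exact zeros just below 0 on them, so the counts below 0 may include genes that were not read. At 2 h 7 of the 68 heat shock genes were at least 2-fold lower, when 7.22% of all genes were. The median difference from 1 day was −0.12 for heat shock genes and −0.17 for chaperonin and prefoldin genes, and from 2 h it was 0.14 and 0.21.

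**Figure D3:**
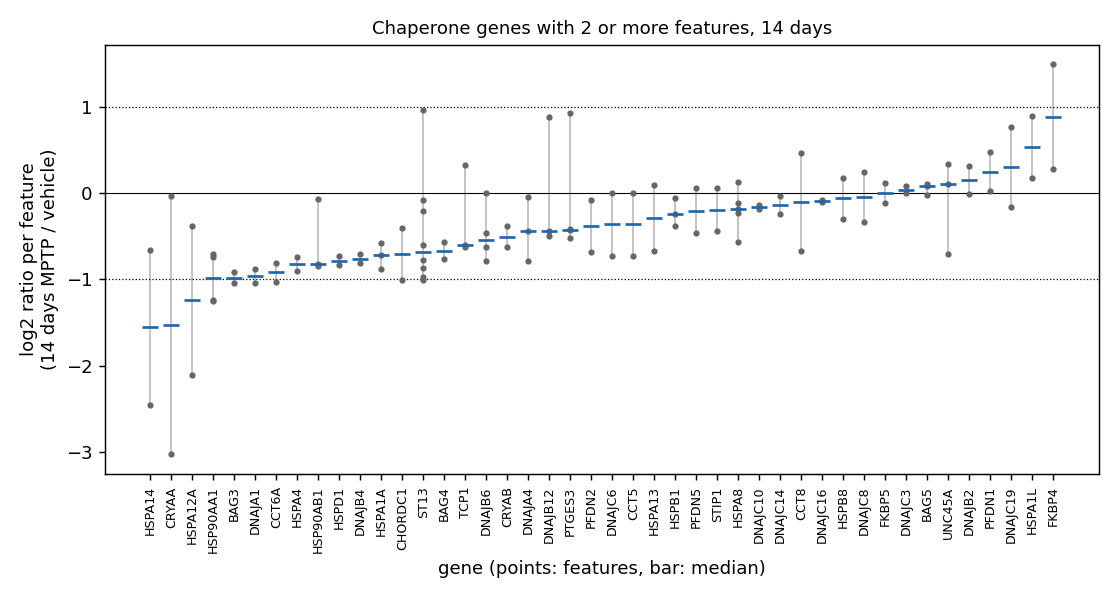
Log2 ratio (14 days MPTP over vehicle) of every feature of the heat shock, chaperonin and prefoldin genes with 2 or more features; points are features, blue bars the gene medians, dotted lines 2-fold. Features of HSP90AA1, BAG3, DNAJA1, HSPA4, HSPD1 and DNAJB4 lie together below 0, while those of ST13, CRYAA and PTGES3 are spread widely.

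Proteasome, ubiquitin and autophagy genes lay mostly on the same side by smaller amounts. Of 42 proteasome subunits 31 (73.8%) were below 0, against 45.1% of all genes, with a median of −0.12. Against the 1 day animal 33 (78.6%) were lower, against 49.7% of all genes. At 2 h the median had been −0.22, with 29 below 0 and 8 at least 2-fold lower, when 7.22% of all genes were. The 29 may include genes listed at exactly 0, which centring put just below 0 on that array. Compared with 2 h, 27 of the 42 were higher at 14 days. Next to PSMC6, the cap ATPase PSMC2 read −1.0 and the core subunit PSMA3 −0.90, each with 1 feature. PSMC4, another cap ATPase with 1 feature, was the highest of the list and its only member at least 2-fold higher, at 1.44 after 0.52, 0.89 and −0.07, and PSMB10, a subunit of the immunoproteasome, read 0.98. Among 31 ubiquitin genes and conjugating enzymes the median was −0.14, and UBE2E1 (−1.89) and UBE2V2 (−1.34), both conjugating enzymes with 1 feature, were at least 2-fold lower. UCHL5, a deubiquitinase of the proteasome cap, had 12 features with a median of −0.85 ± 0.39. Autophagy genes had a median of −0.08 over 38 members, with ATG14 (−1.53), part of the kinase complex that starts autophagosomes, the only one at least 2-fold lower. In the lysosome list (63 genes, median −0.01), ATP6V1H, a subunit of the proton pump, read −1.19 ± 0.67 with both features low, after −1.02, −0.51 and −0.02.

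The unfolded protein response of the endoplasmic reticulum had a median of 0.00 over 42 genes. At least 2-fold lower were 3 of them (7.14%, against 2.12% of all genes), and none was at least 2-fold higher. They were EIF2AK3, the kinase PERK (−1.33), DDIT3, the transcription factor CHOP (−1.15), each with 1 feature, and the pseudokinase TRIB3, whose features lay at −2.54 and 0.17. DDIT3 had read −0.55, −0.44 and −0.44 on the earlier arrays.

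Of the 23 measured markers of dopamine neurons, 16 lay above 0 and 6 below at 14 days. TH, which makes L-DOPA, had features at 0.08 and 0.92, and DDC, SLC18A2 and NR4A2 lay between 0.06 and 0.31. KCNJ6, the GIRK2 potassium channel subunit, read 0.99 and SNCG, gamma-synuclein, 0.87. CALB1, the calcium-binding protein calbindin, which marks dopamine neurons of the dorsal tier as well as other neurons, read −1.79 with 1 feature, after −2.19, −1.68 and −1.90. It was thus low by a like amount on every array. RET, the receptor that carries the GDNF signal, read −0.89, and had been −0.14, −0.08 and −0.48. No marker with several features had all of them past 1.5-fold, so the list rests mostly on single probes.

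In dopamine and biopterin metabolism, PTS, which makes the tetrahydrobiopterin cofactor of TH, read −1.53 and SPR, which completes that cofactor, 0.91. PNMT, the adrenaline-making enzyme, read 3.99 with 1 feature and 1.08 to 1.36 on the other arrays. Of 20 measured genes of inherited parkinsonism and the synucleins, none passed 2-fold and the median was −0.02. The lowest were the ubiquitin hydrolase UCHL1 (−0.78) and PARK7, the oxidation sensor DJ-1 (−0.50), and the highest besides SNCG were the mitochondrial protease HTRA2 (0.70) and the uncoating kinase GAK (0.64 ± 0.88).

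Of 9 GABAergic neuron markers 7 (77.8%) lay below 0, against 45.1% of all genes, with a median of −0.54. Only 2 of the 9 had several features, and neither had all of them past 1.5-fold. GAD2 and GAD1, the GABA-making enzymes, read −1.83 and −0.54 ± 1.27, and SLC32A1, which loads GABA into vesicles, read −0.95 after −0.95, −0.82 and −0.63. SST, somatostatin, read −0.78 and PVALB, parvalbumin, −0.54. Only GAD2 passed 2-fold, and the features of GAD1 ran from −2.39 to 0.04. Among neuropeptide precursors, PNOC, for nociceptin, read −1.75, GRP, for gastrin-releasing peptide, −1.43 and CALCB, for a calcitonin gene-related peptide, −1.02, while the list's median was 0.02 over 38 genes. PNOC and GRP had also been low at 1 day, at −1.98 and −1.68.

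Of the other neuron types, a cholinergic gene stood out. SLC18A3, the vesicular acetylcholine transporter, stood at −1.76 with 1 feature, against 0.91, 0.81 and 1.57 earlier, and CHAT, which makes acetylcholine and whose gene encloses that of SLC18A3, at −0.45 ± 0.67. In the release machinery (41 genes, median 0.08), NSF, the ATPase that takes apart SNARE complexes, read −1.08 ± 0.31 and CPLX1, complexin 1, 0.96 ± 0.27, both with all features past 1.5-fold. NSF had been nearer to vehicle before (−0.81, −0.53 and 0.03), and CPLX1 had read 0.90, 1.0 and 0.71. SYNPR, synaptoporin, a protein of synaptic vesicles, read −1.55.

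Among receptors and channels, single genes passed 2-fold. Monoamine and acetylcholine receptors had a median of 0.13 over 48 genes, with 33 above 0. The beta-1 adrenergic receptor ADRB1 read 3.89 and the serotonin receptor HTR6 1.63, which had been 1.38, 1.54 and 1.11. Of the GABA and glycine receptor subunits, GLRB (−1.19) and GABRA4 (−0.99 ± 0.47) were low and GABRR2 (1.10) was high. The metabotropic glutamate receptor GRM8 read −1.26. Potassium channel subunits KCNJ9 (GIRK3) and KCNN1 (SK1) read 1.77 and 1.48, and KCNB2 −1.02. ELAVL4, the neuronal RNA-binding protein HuD, had 3 features at −0.67 ± 0.07, after 0.02, 0.18 and −0.30, and NAALAD2, a peptidase that splits the neuropeptide NAAG, had 2 at −0.90 ± 0.17, after 0.07, −0.13 and 0.46. The medians of both were thus farther below vehicle at 14 days than on any earlier array, although 1 feature of ELAVL4 had read −0.79 at 2 h.

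Glial genes did not share 1 direction. Of 14 astrocyte markers 8 lay above 0, with a median of 0.06. GFAP, the intermediate filament of reactive astrocytes, had 1 feature at −1.69 and 1 at exactly 0, and VIM, vimentin, read −0.83 ± 0.36. The glutamate transporter SLC1A3 read 0.31 ± 0.12 and the differentiation gene NDRG2 0.33 ± 0.17. Of 28 reactive astrocyte genes none was at least 2-fold higher and 2 (7.14%) were at least 2-fold lower, against 2.16% and 2.12% of all genes. They were the copper oxidase CP, ceruloplasmin, at −1.79 after −1.0, −1.33 and −1.15, and the transglutaminase TGM1 at −1.16.

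Microglia markers had a median of 0.06 over 20 genes. C1QC, a subunit of complement C1q, read 1.58 and its partner C1QB 0.27 ± 0.54. The remaining subunit, C1QA, was listed at exactly 0, so nothing can be read from it. TYROBP and TREM2, an adaptor and its lipid receptor, read 0.44 and 0.36 ± 0.18, both nearer to vehicle than at 2 h (2.01 and 0.87). The lineage factors IRF8 and SPI1 read −0.80 and −0.56. CSF1R, the growth factor receptor of microglia, read 0.34 and CD68, a lysosomal protein of phagocytes, −0.34. Against the 1 day animal 16 of the 20 microglia markers were higher at 14 days, with a median difference of 0.24, against 50.3% of all genes. Against the 6 h and 2 h animals 13 and 12 of the 20 were lower, with median differences of −0.12 and −0.14. CD163, the haemoglobin scavenger receptor of perivascular macrophages, read 1.5 at 14 days and lay between −0.12 and 0.20 before.

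Myelin genes were split. MBP, myelin basic protein, read −0.78 ± 0.16 with both features low (−0.92, −1.57 and −1.06 earlier), and the aspartoacylase ASPA −0.70 ± 0.25, while the myelin genes MAG, CNP and MOG lay between 0.08 and 0.20. The median of the 19 genes was 0.08. The precursor transcription factor NKX2-2 read 1.26, after 1.84, 1.24 and 0.55.

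Erythrocyte and endothelial genes lay mostly above vehicle. Of 21 erythrocyte markers 17 (81.0%) were above 0, against 51.3% of all genes, with a median of 0.39. At least 2-fold higher were 3 (14.3%, against 2.16% of all genes): ALAS2, HBA1 and HBG1, the last with features at −0.32 and 2.59. On the arrays of 2 h, 6 h and 1 day the list had medians of 0.39, 0.08 and 0.23, with 17, 12 and 17 members above 0. The delta-globin gene HBD (0.98 ± 0.28) and ALAS2, the first enzyme of erythroid haem synthesis (1.07 ± 0.31), had every feature past 1.5-fold, and HBB, beta-globin, read 0.97. Globin genes are near-identical, so a probe may read more than 1 of them. PRDX2, a peroxiredoxin abundant in red cells, read 0.83 ± 0.30. Of 25 endothelial markers 19 (76%) lay above 0, against 51.3% of all genes, with a median of 0.18 after 0.26, 0.26 and 0.09 on the earlier arrays. At 14 days the 10 members with several features had a median of 0.08. SELE, the E-selectin that binds leukocytes, read 1.10, PECAM1 0.60, and the glucose transporter SLC2A1 of the blood-brain barrier 0.72, against 0.14, 0.68 and 0.03 before. PDGFRB, the pericyte growth factor receptor, read 1.03, while the pericyte and smooth muscle list had a median of 0.02 over 18 genes. Of these 18 genes 11 lay above 0. Collagen and basement membrane genes had a median of 0.04, with 25 of 46 above 0. How far the share of blood and vessels in the strip enters the other values was not tested.

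**Figure D4:**
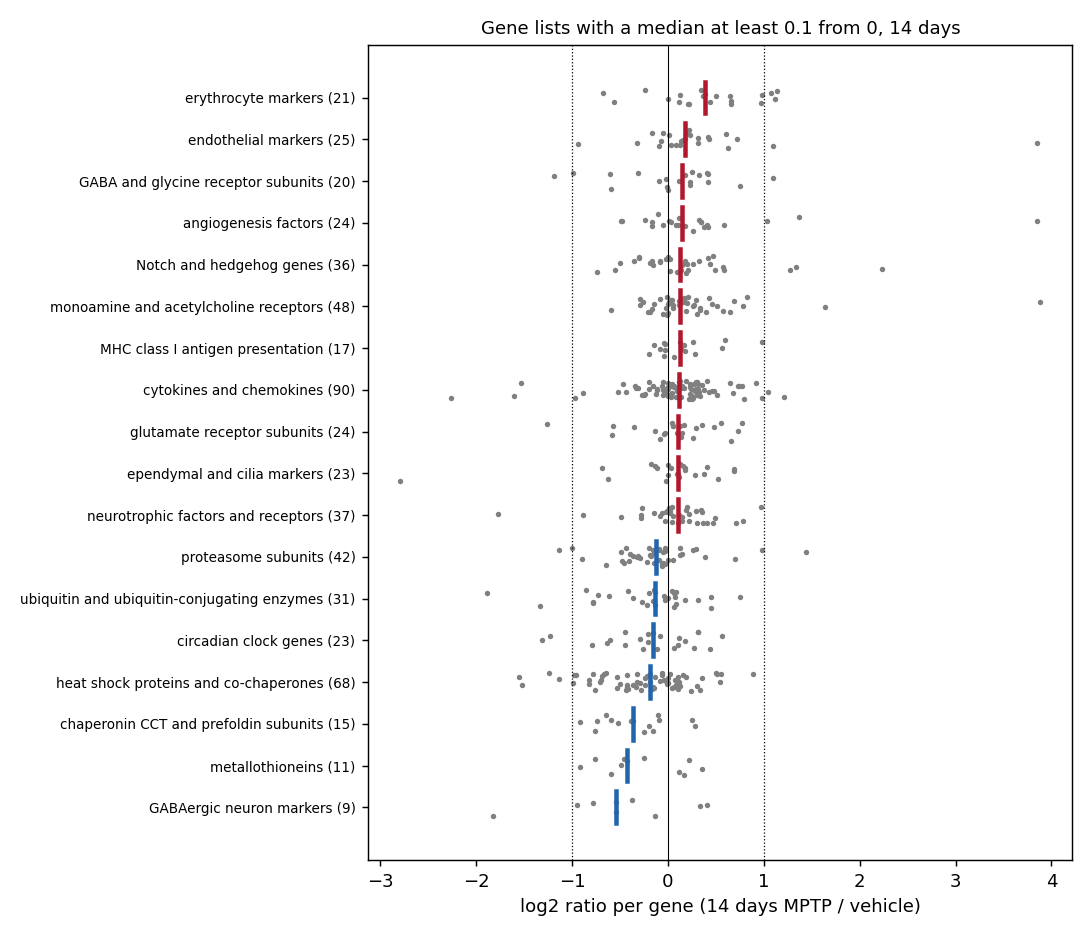
Log2 ratio (14 days MPTP over vehicle) of every measured member of the 18 gene lists whose median lay at least 0.1 from 0; points are genes, coloured bars the medians, dotted lines 2-fold, and the number of genes is in brackets. In every one of these lists the median lies well within 2-fold, and members lie on both sides of 0.

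Of all 74 lists, 11 had a median of 0.1 or more and 7 a median of −0.1 or less. For 3 of these 18, GABA and glycine receptor subunits, neurotrophic factors and clock genes, the median lay on the other side of 0 when only members with several features were taken. The 11 metallothioneins, which buffer zinc and copper, lay at a median of −0.43, or −0.45 for those with several features. MT1X (−0.76 ± 0.16), MT1H (−0.59 ± 0.36), MT2A (−0.49 ± 0.36), MT1G (−0.45 ± 0.22) and MT1L (−0.43 ± 0.18) lay below vehicle. At 6 h the same 5 genes had read 0.54, 0.44, 0.75, 0.55 and 0.35, and at 1 day −0.78, −0.52, −0.58, −0.32 and −0.31. The list's median was thus above vehicle at 6 h (0.44) and below it at 1 day (−0.28) and at 14 days. MT3, the form of the brain, stood apart at 0.35 ± 0.09. Metallothionein genes are near-identical copies, so their probes may read each other and are not separate measurements.

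Of 62 antioxidant and glutathione genes, 1 passed 2-fold: GSTP1, a glutathione transferase, at 2.28 with 1 feature, after −0.46, 0.06 and 1.86. HMOX1, haem oxygenase 1, read −0.77 and its regulator NFE2L2 −0.50 ± 0.31, and the thioredoxin gene TXN read 0.45 ± 0.02. Complex I, the target of the toxin, had a median of 0.03 over 39 subunit genes, and complexes II to V one of 0.02 over 52, none past 2-fold. UQCRQ, of complex III, and ATP5F1D, of the ATP synthase, had all features past 1.5-fold, at 0.77 ± 0.06 and 0.77 ± 0.19. Against the 1 day animal 37 of the 52 genes of complexes II to V (71.2%) were lower, against 49.7% of all genes. Against the 6 h and 2 h animals 28 and 21 of the 52 were lower. VDAC3, a channel of the outer mitochondrial membrane, read −0.72 ± 0.04 after −0.43, 0.01 and 0.24, and ECHS1, an enzyme of fatty acid oxidation, −1.54.

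Ligands and receptors of the TGF-beta family other than INHBA were split: TGFB2 (−1.36) and the type I receptor ACVR1 (−1.28) were low, and the activin receptors ACVR2A and ACVR1C (both 1.18) high. ACVR1C had lain between 0.06 and 0.08 on the other arrays. In the Notch pathway the receptor NOTCH1 read 1.27 and its target genes HES5 and HEYL 2.23 and 1.34, all with 1 feature. Of the 36 Notch and hedgehog genes 3 (8.33%) were at least 2-fold higher and none at least 2-fold lower, against 2.16% and 2.12% of all genes. The list's median was 0.13, after 0.24, 0.23 and 0.07, with 23 members above 0 and 12 below. HES5 had also been high before (2.11, 1.46 and 1.77). The Wnt inhibitor DKK2 read 0.91 ± 0.14 and the Wnt receptor FZD8 −1.41. Of guidance genes, PLXNA2, a semaphorin receptor, read 1.19 ± 0.56, NTN1, netrin 1, 0.91 ± 0.37 and the ephrin receptor EPHB4 1.28, while the related NTN4 read −1.23.

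Cytokines had a median of 0.11 over 90 genes. The chemokine CCL7 read −2.26, after 0.29, 0.49 and 0.35, IL7 −1.61 and CXCL8 −1.53, while IFNG read 1.21 and IL13 1.04. Each had 1 feature. Among interferon-stimulated genes the nuclease ISG20 read −2.06, after −1.80, −1.0 and −1.71, and RSAD2, the antiviral protein viperin, 0.84 ± 0.27. Its medians of 2.10 at 6 h and 2.07 at 1 day came from 1 high feature, and the other read 0.44 and −0.15, below its 0.65 at 14 days. Activity-induced genes were as divided, with EGR3 at 3.82 and ARC at −1.23. ARC, which trims synaptic AMPA receptors, had read 0.66, 0.29 and 1.02. The stress gene GADD45A, a p53 target that halts the cell cycle, read −3.24 (9.46-fold lower) and was also low at 2 h (−2.38), 6 h (−2.82) and 1 day (−2.73). Clock genes had a median of −0.15 over 23 genes, or 0.063 over those with several features, with NFIL3 (−1.32) and HLF (−1.23), both bZIP factors, at least 2-fold lower and BMAL1 at −0.61.

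Among genes that handle RNA, splicing factors leaned below vehicle. Of 75 splicing factors 50 (66.7%) were below 0, against 45.1% of all genes, but the median was −0.06 and none passed 2-fold. At 2 h, 6 h and 1 day 46, 45 and 46 of the 75 lay below 0, any exact zeros included. The medians there were −0.15, −0.06 and −0.04, so the lean was not limited to 14 days. With all features past 1.5-fold, CWC25 was higher (0.77 ± 0.18) and HNRNPH3 lower (−0.65 ± 0.04). Nuclear pore and importin genes (30 of 53 below 0) and translation factors (28 of 53) had medians of −0.02 and −0.03. The nuclear import receptor KPNB1 (−1.17 ± 0.55) and the export receptor XPO1 (−0.77 ± 0.17) had both features past 1.5-fold, and PABPC1, the poly(A)-binding protein, had 3 at −0.83 ± 0.17. LUC7L3, a splicing factor, had 3 features at −1.04 ± 0.10, after −1.02, −0.79 and −0.17. The 70 genes of cytosolic ribosomal proteins had a median of 0.02, against −0.42 at 2 h. RPS15 (1.05 ± 0.08) and RPS3A (−0.93 ± 0.25) lay at its ends, and both had been farther from vehicle at 2 h, at 2.03 and −1.52.

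Some genes read otherwise at 14 days than on all the other arrays. Those at least 2-fold from vehicle and at least 2-fold from each other array on the same side numbered 81 higher (0.45%) and 84 lower (0.466%), and 58 and 65 of them had 1 feature. SWAP70 was the only one whose features all passed 2-fold. Others with several features, such as BCL2L1, the survival protein BCL-XL (2.08 ± 3.16), the secreted protease HTRA1 (2.00 ± 1.96) and the mitochondrial cristae protein IMMT (2.07), rested on features that lay far apart. The lower genes with 1 feature included TOP2A, the topoisomerase of dividing cells, at −3.36, which had read 4.50 at 2 h, and the kinase SRC at −1.99. On the higher side were TDO2, which breaks down tryptophan (3.07), and the endothelial receptor TIE1 (3.85). TIE1 had read −0.77, −1.12 and −0.34.

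Apart from PLEKHA1 and TTC12, the genes with the highest and lowest values had 1 feature each. Highest were JADE1, a chromatin protein (6.28), LRRC41, a ubiquitin ligase adaptor (6.01), GAS2L1, a cytoskeletal linker (5.95), and ADAT3, a transfer RNA deaminase subunit (5.48). RAB13, a trafficking GTPase, read 4.68, and ADCK5, the receptor IL6R, the chromatin reader SGF29 and the potassium channel subunit KCNS1 lay between 4.48 and 4.52. The myosin light chain MYL5 and the retinal phosphodiesterase PDE6C both read 4.22. Lowest were the muscle myosin MYH13 (−4.22), PLEKHA1, a phosphoinositide-binding protein (−3.59 ± 4.32), TOP2A, GADD45A and the transcription factor CEBPG (−3.04). TTC12 (−2.79, with 2 features as given above) came next, and MAGEA1, TRIML1, TBC1D10C and ATL3 followed, from −2.68 to −2.61. PLEKHA1 shows how far 2 features can part: 1 lay at −6.64, the lower limit of the table, and the other at −0.53.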

How the data were processed

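The deposited table gave 1 value per array feature, read here as log10 ratios of Cy5 (MPTP) over Cy3 (vehicle), as the authors deposited them; dyes and amplification are per the labels' protocols. The reading rests on the values' form: the 14 day column had a median of 0 and limits of −2 and 2. For software, background correction and normalization: not given in the sources used here. No intensities were used, so no feature could be filtered for low signal, and the number of arrays, 1 a time, limits the precision.

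To reach log2, the deposited values were multiplied by log2 of 10, then centred on each array's median over all features. Features of 1 gene were summarised by their median (Python 3.11.15, pandas 2.3.3, numpy 2.4.6). Symbols came from the platform annotation; 97 features with several symbols and 14801 with none were left out. Of the 18014 symbols, 15319 (85.0%) are in the marmoset RefSeq gene table. Of 2755 genes in 74 lists 2573 were measured, and 182 are not analysed here.

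Without replicates no test was run, and a gene was counted at 2-fold. The rule for named genes took genes whose features all passed 2-fold, the 12 highest and 12 lowest genes, members of each list past 2-fold (or its most distant members), genes at least 2-fold from vehicle and from every other array, and a fixed set of markers, leaving out clone names. Other named genes, including those at 1.5-fold, were chosen after their values were seen. The members and lists were chosen with earlier results of these data known. The scripts were tested on simulated data. Alternatives were no centring, centring on named features, the mean over features, exact zeros taken as not measured, arrays scaled to 1 spread, other thresholds, identical features counted once, genes of the marmoset table, and list members with several features.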

Additional observations from a re-analysis of the deposited data

Results flagged for a closer look

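The following named genes lay at least 2-fold from vehicle at 14 days and on another array, on opposite sides. A list is given only if its medians lay well away from 0 on both arrays, on opposite sides. Lists that changed side with a median near 0 on either array are left out. Among these were GABAergic neuron markers (0.09 at 2 h, −0.54 at 14 days) and cytosolic ribosomal proteins (−0.42 at 2 h, 0.02 at 14 days). With 1 animal a time and a shared vehicle sample these differences were not tested.

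HSPA14 stood at −1.56 at 14 days against 2.06 at 1 day, RYR1 at −1.22 against 1.85, ARC at −1.23 against 1.02, SLC18A3 at −1.76 against 1.57, and TBC1D32, a cilium protein, at 1.21 against −1.15. At 1 day the features of HSPA14 lay at 4.68 and −0.56, those of RYR1 at 3.92 and −0.23, and those of TBC1D32 at −0.10 and −2.20, so for these 3 genes the value at 1 day rests on 1 feature. Against the 2 h array, TOP2A stood at −3.36 against 4.50, IL7 at −1.61 against 3.37, LCAT, which esterifies cholesterol in lipoproteins, at −1.77 against 1.64, C8B, a late complement component, at 1.29 against −2.73, RAB13 at 4.68 against −1.49, and SWAP70 at 1.42 against −1.10, the last between features at −0.09 and −2.11. Against the 6 h array, TIE1 stood at 3.85 against −1.12 and the synaptic adhesion gene NLGN4X at 1.12 against −1.29. The metallothionein list had a median of −0.43 at 14 days against 0.44 at 6 h.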

How the results depend on the processing

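The counts at 2-fold moved with the threshold and the scale. With arrays scaled to 1 spread, 642 genes were higher and 676 lower, and 12 and 34 genes with several features had all of them past 2-fold on the higher and the lower side. At 3-fold these were 87, 76, 0 and 1, and at 1.5-fold 1254, 1387, 48 and 103. Under the mean over features, zeros taken as not measured, identical features counted once and genes of the marmoset table, each count run stayed within 1.5 times its value. Leaving out the centring could not change any 14 day value, since the deposited median of that array was already 0. Centring on named features gave the same counts and the same median of all genes, so neither setting tests the counts. Of the 18 lists with a median at least 0.1 from 0, 3 turned when only members with several features were taken. These were GABA and glycine receptor subunits (to −0.095), neurotrophic factors (to −0.015) and clock genes (to 0.063). The heat shock median went to −0.42. Lists with medians nearer to 0 were not counted, and some of them changed side too. Among them, purinergic receptors went from −0.03 to 0.28 and oligodendrocyte precursor markers from 0.09 to −0.09. The cause was not tested. No other setting turned any of the 18 lists or any named gene at least 2-fold from vehicle. The median of all genes moved by no more than 0.1 under any setting.

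No paired analysis was possible because each group has 1 array and all share 1 vehicle sample. Signal over background is unknown here, so dim probes cannot be told from well-measured ones. The array was made for human genes, and how well each probe reads the marmoset transcript was not tested.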

Other observations

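Olfactory receptor genes, a large family best known from the nose, were spread less widely than the array as a whole. Their 112 measured genes had a median of 0.08 and an SD of 0.22, with 5th and 95th percentiles of −0.19 and 0.45. At least 2-fold higher was 1 of them (0.893%), and none was at least 2-fold lower. The spread of all genes was 0.47.

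Among histone genes (60, median 0.09), H4C8 and H3C10 read 1.44 and 1.27, and H2AC16 −1.32. Cell cycle genes other than TOP2A were high where they passed 2-fold, with the replication origin gene ORC1 at 1.95, E2F1 at 1.34 and AURKB at 1.06, and CDT1 at 1.91 ± 2.89, while the median of the 67 genes was 0.04. In lipid transport, LCAT read −1.77. Among matrix and vessel factors, the urokinase receptor PLAUR read 1.41 (1.03, 0.85 and 1.03 on the earlier arrays), ANGPTL4 1.37 and the small proteoglycan ASPN 1.31, the last after −0.09, 0.11 and −0.31. The sorting receptor gene SORCS3 read −1.77 and the betaine and GABA transporter SLC6A12 −1.43, both low on all 4 arrays.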
